A study of Mus musculus with 17 samples.

Results

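The miRs described here were the products of the miR-17-92 cluster and its paralogs, chosen by name: mmu-miR-17, mmu-miR-18a, mmu-miR-19a, mmu-miR-19b, mmu-miR-20a, mmu-miR-20b, mmu-miR-25, mmu-miR-93, mmu-miR-106a and mmu-miR-106b. All 10 were present among the 569 mouse miRs on the array, each printed as 6 spots. The study followed miR levels in whole kidney of C57/BL6 mice, 10 to 12 weeks old, over 17 samples, each RNA pooled from 3 mice. The IRI (ischemia reperfusion injury) mice underwent 30 min of warm ischemia, unilateral according to the methods, the sham mice underwent surgery without it, and the naive mice were untreated. IRI and sham kidneys were taken on 8 days between day 1 and day 30 (1, 3, 5 and 7, then 10, 14, 21 and 30), with 1 pool per arm and day, and there was 1 naive pool. No allele or further treatment distinguished the groups. The sample labels give female mice and the methods male mice.

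MiRs are short RNAs that pair with messenger RNAs, chiefly through their seed, the bases near their 5′ end, and lower the output of the genes they match. The miR-17-92 cluster is transcribed as 1 RNA, is induced by Myc and by E2f1, and is known for promoting the cell cycle and survival in tumours and in developing organs. Its paralog clusters carry near copies of the same miRs, and the cluster of mmu-miR-106b, mmu-miR-93 and mmu-miR-25 lies inside Mcm7, a gene of the DNA replication helicase.

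The mature sequences are shown because they carry both the targeting of each miR and the difficulty of telling them apart on an array. They are the target sequences of the probes, identical in all 10 cases to the RefSeq mature sequence, written 5′ to 3′ with the seed (bases 2 to 8) in capitals. The positions are those of RefSeq on GRCm38.p6. The first group, 6 miRs, shares the seed of mmu-miR-17, and no other miR on the array has it.
mmu-miR-17: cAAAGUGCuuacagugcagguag
mmu-miR-20a: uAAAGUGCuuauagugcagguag
mmu-miR-20b: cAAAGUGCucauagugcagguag
mmu-miR-106a: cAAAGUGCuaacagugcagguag
mmu-miR-93: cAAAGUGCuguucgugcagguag
mmu-miR-106b: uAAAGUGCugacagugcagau
The seed of mmu-miR-18a differs from these at an inner base, mmu-miR-19a and mmu-miR-19b share a seed of their own, and mmu-miR-25 has the seed of mmu-miR-92a.
mmu-miR-18a: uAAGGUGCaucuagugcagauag
mmu-miR-19a: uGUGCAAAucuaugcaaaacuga
mmu-miR-19b: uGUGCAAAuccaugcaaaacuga
mmu-miR-25: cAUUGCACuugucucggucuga
mmu-miR-92a, not a member but the closest relative of mmu-miR-25 on the array: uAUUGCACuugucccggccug

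Counted from the 5′ end, mmu-miR-17 and mmu-miR-106a differ by U10A alone, and mmu-miR-19a and mmu-miR-19b by U11C alone. From mmu-miR-17 to mmu-miR-20a the changes are C1U and C12U, and from mmu-miR-20a to mmu-miR-20b they are U1C and U10C. The nearest sequences to mmu-miR-93 (mmu-miR-17 and mmu-miR-20b) are 3 edits away and those to mmu-miR-106b are 5 edits away, an edit being a substitution, insertion or deletion of a base. For mmu-miR-25 the nearest sequence on the array, mmu-miR-92a, is 4 edits away, and the miRs with the seed of mmu-miR-17 are 12 or 13 edits away. A signal at a probe of the miR-17 seed group can therefore hold RNA of its relatives. The same can be so for the other members, among them mmu-miR-19a with mmu-miR-19b and mmu-miR-25 with mmu-miR-92a. How much RNA of relatives any of these probes held was not tested.

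The cluster on chromosome 14, on the + strand, spans 697 bases over its 5 members, from mmu-miR-17 (chr14:115043684-115043706) through mmu-miR-18a (chr14:115043867-115043889), mmu-miR-19a (chr14:115044048-115044070) and mmu-miR-20a (chr14:115044183-115044205) to mmu-miR-19b (chr14:115044358-115044380). On the X chromosome, on the − strand, lie mmu-miR-106a (chrX:52742541-52742563), mmu-miR-20b (chrX:52742159-52742181) and a further copy of mmu-miR-19b (chrX:52741991-52742013), whose mature product is the same as that of chromosome 14. On chromosome 5, on the − strand, mmu-miR-106b (chr5:138165787-138165807), mmu-miR-93 (chr5:138165574-138165596) and mmu-miR-25 (chr5:138165332-138165353) lie within the span of Mcm7.

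IRI and sham of a day shared an array, IRI in Cy3 and sham in Cy5 on all 8 arrays, without a dye swap. A constant dye effect and a constant effect of IRI therefore cannot be told apart in the mean ratio, whereas a constant dye effect cancels in a slope. The naive pool was alone in Cy3 on its own array. Empty spots had a median of 186 to 516 in the IRI channels, of 33.0 to 43.9 in the sham channels and of 511 in the naive channel, and 124 to 372 miRs per sample were above background. The study's list of days leaves out day 10, which was measured and is used here. Of 7 miRs that mark kidney tubule, 6 (mmu-miR-192, mmu-miR-194, mmu-miR-30a, mmu-miR-30c, mmu-miR-200a and mmu-miR-200b) were above background in 17 of 17 samples, and mmu-miR-204 was in 6 of 17. In whole kidney RNA, fewer cells of a type and less of a miR per cell cannot be told apart.

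A miR counted as above background where its spots averaged more than the empty-spot median plus 3 median absolute deviations. mmu-miR-17, mmu-miR-20a, mmu-miR-25, mmu-miR-93 and mmu-miR-106b were above background in 17 of 17 samples, mmu-miR-20b and mmu-miR-106a in 16, mmu-miR-19b in 13, mmu-miR-18a in 5 and mmu-miR-19a in 0. A miR was tested where its normalized intensity reached 200 in at least 1 sample. The study took 200 as its level of reliable detection on its own values, a scale on which mmu-miR-20b and mmu-miR-106a reached at most 148 and 132. Of the 10 members 7 were tested, and mmu-miR-18a, mmu-miR-19a and mmu-miR-19b were not. mmu-miR-106a entered through 1 IRI sample (day 14, 237), and mmu-miR-20b through 4 IRI samples and the naive sample, so that their entry itself leaned on the arm in which they were higher.

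**Figure D1:**
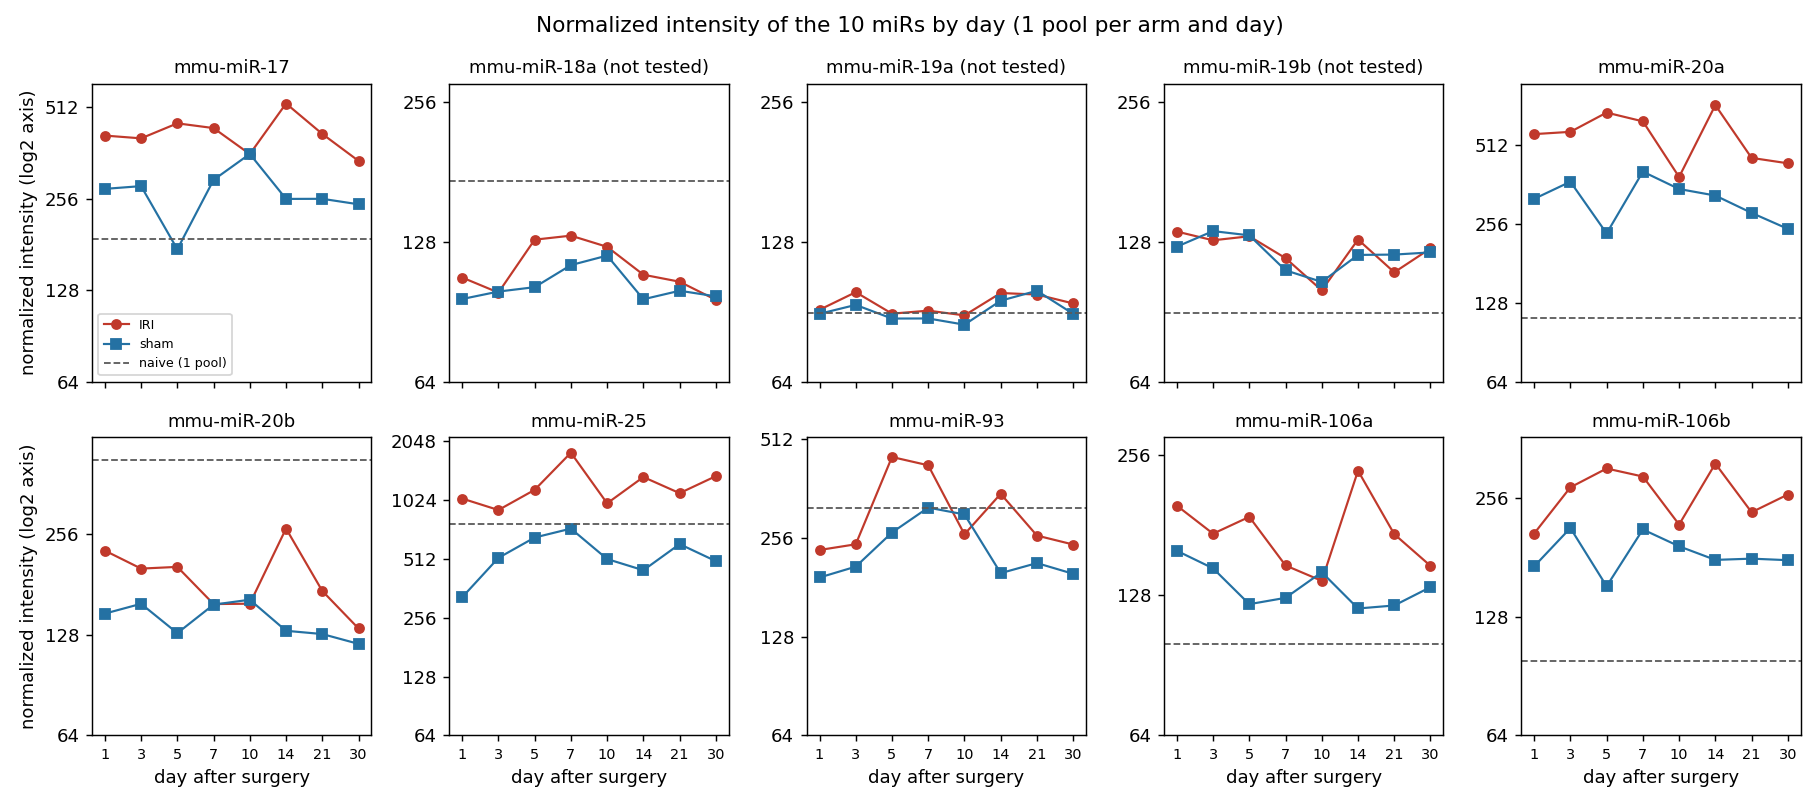
Normalized intensity (log2 axis, its range set per panel) of the 10 miRs against day after surgery, with IRI as circles, sham as squares and the single naive pool as a dashed line. For mmu-miR-25 the lowest IRI level (907) lies above the highest sham level (729), while for mmu-miR-19a and mmu-miR-19b the arms run together.

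mmu-miR-25 had the highest mean ratio of the members with loess scaling, and with plain subtraction of the empty-spot median and median scaling mmu-miR-106a and mmu-miR-20b (both 1.75) came above it (1.61). Its seed is that of mmu-miR-92a, and both are known to repress the pro-apoptotic gene Bcl2l11. By day from 1 to 30 its normalized intensity was 1038, 907, 1150, 1780, 981, 1337, 1106 and 1351 in IRI. In sham it was 325, 517, 656, 729, 510, 447, 608 and 497 on the same days. The arms did not overlap, and IRI was higher on each of the 8 days. The gap was narrowest on days 3 and 5 (log2 ratio 0.81 on both) and widest on day 1 (1.67), when sham was at its lowest. The mean log2 IRI/sham ratio was 1.18 ± 0.12 (SE, n = 8 arrays), a 2.26-fold difference, with an adjusted p of 0.000345 by limma, and it was the 7th highest mean ratio of the 162 miRs tested. Among those 162 miRs, 2.47% had all IRI levels above all sham levels, and mmu-miR-25 was the only member of the 10 that did.

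mmu-miR-20a and mmu-miR-17 are products of the chromosome 14 cluster, and are known to repress E2f1 and the cell cycle inhibitor Cdkn1a. mmu-miR-20a measured 563, 575, 681, 630, 387, 727, 457 and 436 in IRI by day, against 319, 371, 236, 405, 348, 328, 282 and 245 in sham. IRI was higher on each of the 8 days, by 0.15 on the log2 scale on day 10 and by 1.53 on day 5, and the ranges of the arms met only through the IRI pool of day 10 (387) and the sham pool of day 7 (405). The mean log2 ratio was 0.81 ± 0.14 (SE, n = 8), 1.75-fold, with an adjusted p of 0.00566. mmu-miR-20a is on the list of 9 miRs that the study had chosen on these kidneys for a difference between IRI and sham, so its direction is not independent evidence.

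mmu-miR-17 measured 413, 404, 453, 437, 359, 526, 418 and 341 in IRI and 276, 282, 175, 295, 359, 256, 256 and 245 in sham. On day 10 the arms were level, and on the other 7 days IRI was higher, by 0.47 to 1.38 on the log2 scale. Day 5 combined a high IRI level with the lowest of its 8 sham levels. The mean log2 ratio was 0.66 ± 0.14 (SE, n = 8), 1.58-fold, with an adjusted p of 0.0101.

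The other products of the chromosome 14 cluster were near the limit of the array. mmu-miR-18a, a relative of the miR-17 group, lay between 96.0 and 132 in IRI and between 96.3 and 119 in sham, and was above background in 3 IRI samples, 1 sham sample and the naive sample. mmu-miR-19a lay between 88.9 and 99.7 in IRI and between 84.9 and 100 in sham, and was not above background in any sample, so its ratios, though plotted, measure no difference between the arms. mmu-miR-19b, made from both chromosome 14 and the X chromosome, lay between 101 and 135 in IRI and between 105 and 135 in sham, and was higher in IRI on 4 of 8 days. Its mean log2 ratio was 0.01 ± 0.03 (SE, n = 8), without a test.

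The X chromosome members were close to the level set for testing. mmu-miR-20b, by day, measured 228, 202, 204, 158, 158, 265, 173 and 134 in IRI and 148, 158, 129, 157, 163, 131, 129 and 120 in sham. The arms were apart on days 1, 5 and 14 and almost level on days 7 and 10. Its mean log2 ratio was 0.40 ± 0.12 (SE, n = 8). Its adjusted p of 0.0355 carries little weight, because apart from the naive sample it was tested only through IRI samples, and it did not pass with no filter (0.0525) or with a floor of 200 (0.338). mmu-miR-106a lay between 138 and 237 in IRI, with a median of 174, and between 120 and 160 in sham, with a median of 130. It was higher in IRI on 7 of 8 days, with a mean log2 ratio of 0.38 ± 0.11 (SE, n = 8). Its adjusted p of 0.0330 carries little weight, because it was tested only through 1 IRI sample, the arm in which it was higher.

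mmu-miR-106b and mmu-miR-93 come from the Mcm7 cluster with mmu-miR-25 and carry the seed of mmu-miR-17. mmu-miR-106b measured 208, 272, 304, 290, 219, 313, 235 and 261 in IRI and 172, 215, 153, 213, 193, 178, 180 and 178 in sham. IRI was higher on each of the 8 days, by 0.18 to 0.99 on the log2 scale, while the ranges of the arms overlapped narrowly, between 208 and 215. The mean log2 ratio was 0.50 ± 0.10 (SE, n = 8), 1.41-fold, with an adjusted p of 0.00984.

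mmu-miR-93 measured 235, 245, 451, 425, 262, 348, 260 and 244 in IRI and 194, 209, 266, 316, 301, 200, 214 and 199 in sham. IRI was highest on days 5 and 7 and sham on days 7 and 10, and on day 10 sham was above IRI. On day 5 the 6 spots of mmu-miR-93 disagreed, with a coefficient of variation of 52.4% in IRI and 90.3% in sham. The mean log2 ratio was 0.36 ± 0.11 (SE, n = 8), with an adjusted p of 0.0357. It passed under 6 of 19 alternatives, among them the median of the spots (0.35, adjusted p = 0.0465). It did not with a filter on the mean (0.0540), no filter (0.0502), a floor of 200 (0.0655), the authors' processed values (0.155) or IRI and sham not paired (0.113).

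**Figure D2:**
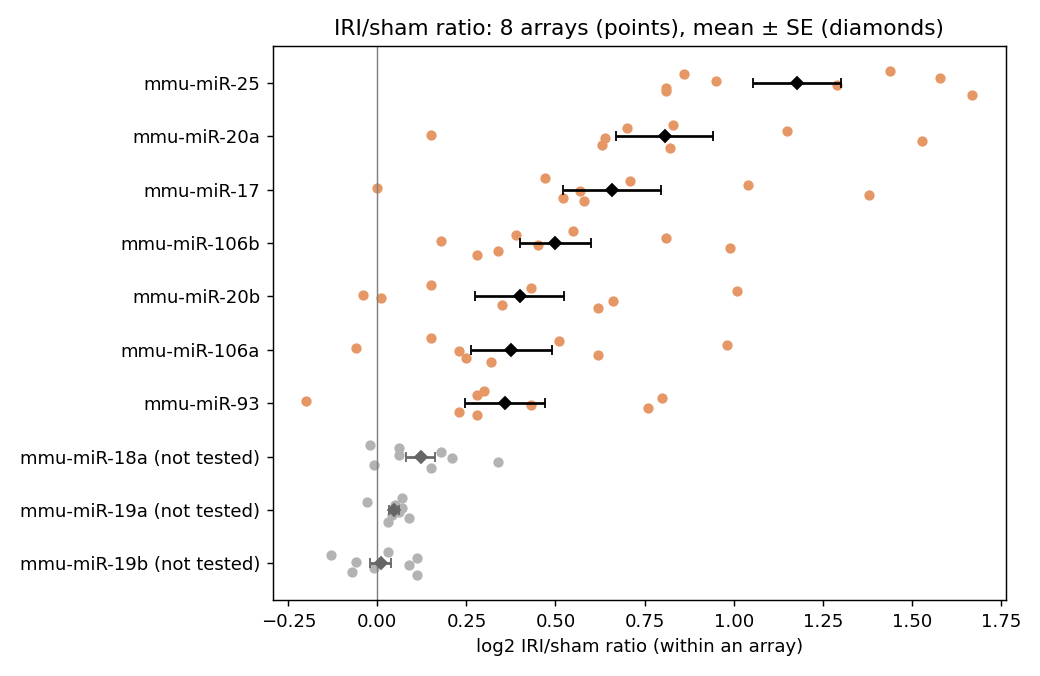
Log2 IRI/sham ratio of each of the 8 arrays (points) with the mean and its SE over arrays (diamonds), for the 10 miRs ordered by mean ratio. The 8 ratios of mmu-miR-25 lie between 0.81 and 1.67, and those of mmu-miR-19a and mmu-miR-19b lie within 0.13 of 0.

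Over the 10 members, 7 passed the test with IRI higher, 0 passed with IRI lower, and 3 were not tested. With a filter on the mean intensity in place of the highest, which leaves out mmu-miR-106a and mmu-miR-20b, 5 were tested and 4 passed, among 21 of 100 miRs called higher. With the filter on the highest intensity, 30 of the 162 miRs tested were higher (18.5%) and 29 lower in IRI. The median of the mean log2 ratios was 0.39 over the 10 members, the 3 untested included, and −0.04 over the miRs tested. IRI was above sham on all 8 days in 3 members, mmu-miR-25, mmu-miR-20a and mmu-miR-106b, against 13.0% of the miRs tested. By the exact sign-flip permutation test on single miRs (two-sided, unadjusted), p was 0.00781, the smallest that 8 arrays allow, for these 3, 0.0156 for mmu-miR-17, mmu-miR-93 and mmu-miR-106a, and 0.0234 for mmu-miR-20b. The same test gave 0.0156 for mmu-miR-19a, which was never above background, and 0.0312 for mmu-miR-18a, so a p of this size does not by itself mark a measured difference.

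The calls were not equally firm. mmu-miR-25, mmu-miR-20a, mmu-miR-17 and mmu-miR-106b passed the limma test whichever day was left out, with mean log2 ratios of 1.11 to 1.23, 0.70 to 0.90, 0.56 to 0.75 and 0.43 to 0.54. mmu-miR-106a passed in 4 of the 8 fits with a day left out, failing without day 5, 7, 14 or 21 (adjusted p of 0.0600, 0.0531, 0.0640 and 0.0806). mmu-miR-20b passed only without day 7 or day 10, and mmu-miR-93 only without day 10, the adjusted p elsewhere being at most 0.0806 and 0.0841. Without day 10, that is on the study's own days, 7 members passed, among 28 of 162 miRs called higher.

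The scaling of the channels changed the size of these differences and not their direction. Loess removes a dye difference that varies with intensity. With the channels scaled by their median in its place, mean log2 ratios were 1.42 for mmu-miR-25, 1.12 for mmu-miR-20a, 1.00 for mmu-miR-17 and 0.72 for mmu-miR-93, and 7 members passed. Under that scaling 40 of 49 calls over all miRs were higher in IRI (81.6%), against 30 of 59 with loess (50.8%), so that a higher call in IRI was more common there. With the authors' processed values, 5 members reached the level for testing and 4 passed, among 23 of 114 miRs called higher, the exception being mmu-miR-93 (0.37, adjusted p = 0.155).

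**Figure D3:**
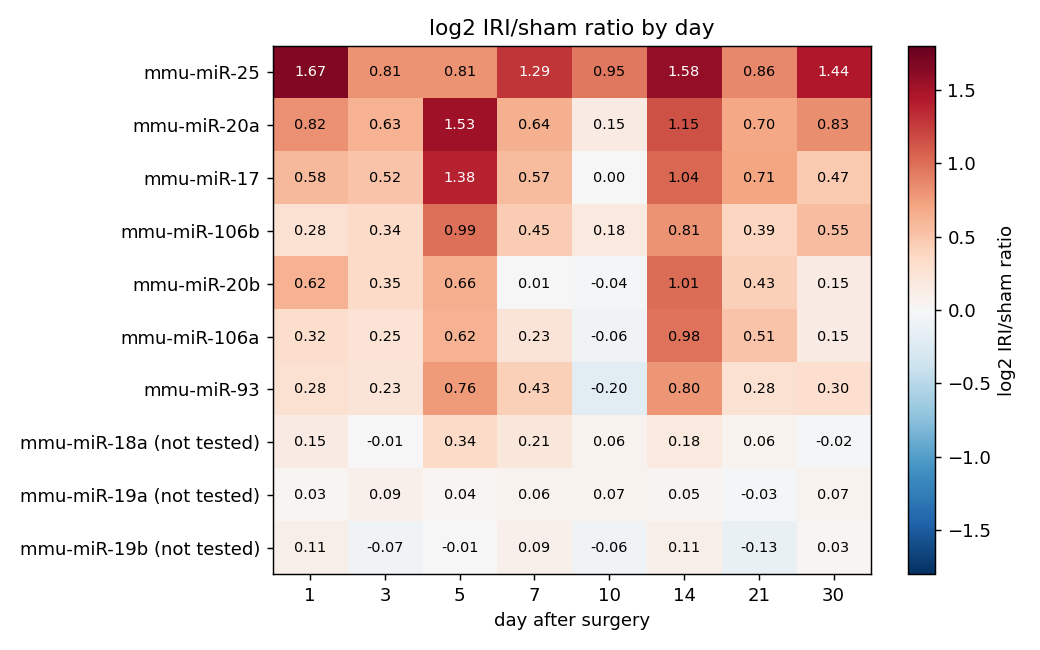
Log2 IRI/sham ratio (colour scale and printed value) of the 10 miRs by day after surgery, 1 array per day. The rows with the seed of mmu-miR-17 are darkest on days 5 and 14 and palest on day 10, and the row of mmu-miR-25 is not. The row of mmu-miR-20b is as pale on day 7 (0.01) as on day 10 (−0.04).

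The question of whether the members followed the course of injury and repair was asked of the ratio over log2(day), which spans 4.91 doublings of time. Slopes of the log2 ratio lay between −0.04 and 0.04 per doubling for the 7 members tested, with 95% limits that stayed between −0.24 and 0.21. By limma, 0 members passed for a slope of the ratio (2.47% of the miRs tested did), 0 for its curvature (2.47%), 0 for a slope of the IRI level (8.64%) and 0 for a slope of the sham level (1.23%). In each of these 4 tests 0 members had an unadjusted p under 0.05, and exact permutation of the days gave 0 for the slope of the ratio. A missed threshold with 1 pool per day does not show that the ratios were constant.

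The ratios varied between days in a way that the 6 miRs with the seed of mmu-miR-17 had in common. By day from 1 to 30 their median log2 ratio was 0.45, 0.35, 0.88, 0.44, −0.02, 1.00, 0.47 and 0.38, with the highest values on days 5 and 14. All 6 were higher in IRI on 7 of the days, and 2 of 6 on day 10. The median over all miRs tested, which the loess step sets near 0 on each array, was between −0.02 and 0.03. The IRI channel of day 10 had the highest empty-spot median (516) and the fewest miRs above background (124), and the IRI channel of day 14 had the most variable spots (a median coefficient of variation of 16.7%), and the part of these in the day pattern was not tested. Each day is 1 pool per arm, so a day cannot be told apart from its array.

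Over the 8 arrays the 15 pairs within this group had Pearson r of 0.605 to 0.963 between their ratios, with a median of 0.872, and Spearman rho of 0.548 to 0.952. The lowest r belonged to mmu-miR-20b and mmu-miR-106b, and the highest to mmu-miR-17 and mmu-miR-20a. In each pair the 2 arrays farthest from the median ratio were also left out, judged only by the miR that comes first in the opening list. Then r lay between 0.269 and 0.996, with a median of 0.793. The 6 pairs with mmu-miR-25 had r of −0.02 to 0.29, with a median of 0.154, and rho of −0.143 to 0.143. With the 2 farthest arrays left out, judged by mmu-miR-25 in some pairs and by its partner in others, their r lay between −0.426 and 0.675. The highest was that with mmu-miR-20a, so that these ranges overlapped those within the group. Over all 13041 pairs of miRs tested the median r was 0.01, and 10.2% reached the lowest value of the group. These correlations are descriptions over the same 8 arrays, which share their normalization, and the probes of the group may share RNA.

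**Figure D4:**
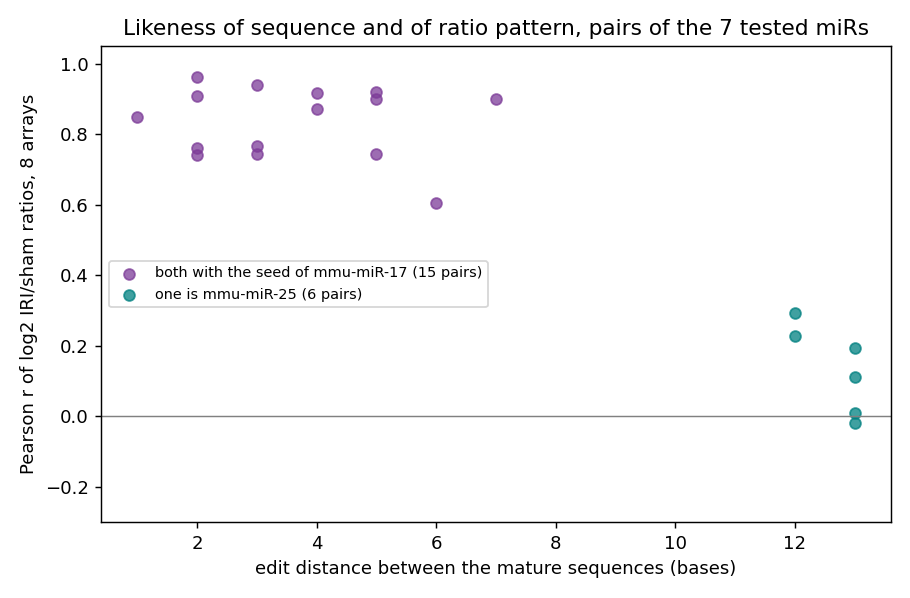
Pearson r between the log2 IRI/sham ratios of 2 miRs over 8 arrays, against the edit distance between their mature sequences, for the 21 pairs of the 7 tested miRs. The 15 pairs with the seed of mmu-miR-17 (1 to 7 edits) have r of 0.605 or more, and the 6 pairs with mmu-miR-25 (12 or 13 edits) have r of 0.294 or less.

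Within the group, mmu-miR-17 and mmu-miR-106a, 1 edit apart, had r of 0.848, rho of 0.952 and an r of 0.996 without the 2 farthest arrays. For mmu-miR-93 and mmu-miR-106b, which are 7 edits apart and neighbours in the Mcm7 cluster, these were 0.901, 0.929 and 0.925, so which of the pairs was more alike depended on the measure. mmu-miR-25, the third product of that cluster, had r of 0.228 with mmu-miR-93 and of 0.01 with mmu-miR-106b. The sizes of the ratios also differed between near copies, at 0.66 for mmu-miR-17 and 0.38 for mmu-miR-106a on the log2 scale. They were both 0.66 with the authors' processed values, 1.00 and 0.70 with median scaling, and 1.41 and 1.75 with the empty-spot median subtracted. The gap between these ratios thus depended on the processing.

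Outside the family, the 3 miRs whose ratios over the 8 arrays were most like those of mmu-miR-20a, among 152 candidates, were mmu-miR-674 (r = 0.902), mmu-miR-155 (r = 0.865) and mmu-miR-200a (r = 0.855). Their mean log2 ratios were 0.10, 1.52 and −1.11, so a like pattern over days went with different mean ratios.

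The other products of the 3 clusters were taken from a list of 14, of which 11 were on the array and 2 were tested. mmu-miR-92a, made from both the chromosome 14 and the X chromosome cluster, lay between 904 and 1710 in IRI and between 455 and 1081 in sham, and was higher in IRI on each of the 8 days, with a mean log2 ratio of 0.63 ± 0.12 (SE, n = 8; adjusted p = 0.00984). mmu-miR-18b entered the test through the naive sample alone (248), and its mean log2 ratio was 0.00 ± 0.05 (adjusted p = 0.993). The remaining 9, mmu-miR-363 and 8 passenger strands, which are the opposite arms of the precursors, were not tested and reached at most 109 in either arm. Of 6 further miRs on the array with the seed of a member, 3 were tested and 2 were higher in IRI, mmu-miR-92a and mmu-miR-92b. mmu-miR-92b, encoded elsewhere in the genome, had a mean log2 ratio of 0.53 ± 0.11 (SE, n = 8; adjusted p = 0.00984) and was higher in IRI on each of the 8 days.

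Several markers of other cells differed between the arms. Of 5 leukocyte miRs 3 were tested and all 3 were higher in IRI (mmu-miR-155, mmu-miR-223 and mmu-miR-150, with mean log2 ratios of 1.52, 0.98 and 0.92), while mmu-miR-142-3p and mmu-miR-142-5p were each above background in 2 of 17 samples. mmu-miR-223 was tested only through IRI samples (sham at most 129, naive 142), so its call carries little weight. The summed level of the list was 1447 to 3266 in IRI and 820 to 1177 in sham. Of 3 fibroblast miRs all 3 were higher in IRI, with summed levels of 2221 to 9835 against 1442 to 3325. Here mmu-miR-199a-5p was tested only through IRI samples (sham at most 137, naive 99.2), so its call carries little weight. Of 7 tubule miRs 6 were tested, 0 were higher and 4 were lower in IRI, with summed levels of 16650 to 28470 against 23900 to 33010. The fibroblast miRs mmu-miR-199a-3p and mmu-miR-214 are on the study's list of miRs chosen for a difference between IRI and sham. So are the tubule miRs mmu-miR-192 and mmu-miR-194, and the directions of these miRs are not independent evidence. Of 3 erythroid miRs 2 were tested and of 2 endothelial miRs 1, and 0 passed for the mean ratio in either list (mean log2 ratios of −0.68 for mmu-miR-451, −0.78 for mmu-miR-486 and −0.03 for mmu-miR-126-3p). For a slope with log2(day), mmu-miR-451 (−0.79, adjusted p = 0.0124) and mmu-miR-486 (−0.59, adjusted p = 0.0252) passed, calls that were lost with median scaling, with no filter, and without day 21 or day 30, where 0 of all miRs passed. The part of these cells in the members' ratios was not tested.

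The naive level is a description from 1 pool on an array of its own. Against it, mmu-miR-20a was 3.46 to 6.50 times as high in IRI and 2.11 to 3.62 times in sham, and mmu-miR-106b 2.11 to 3.17 and 1.55 to 2.18 times. The gaps were smaller in the authors' processed values. There mmu-miR-20a was 122 in naive, 335 to 650 in IRI and 186 to 369 in sham. mmu-miR-106b was 78 in naive, 129 to 224 in IRI and 85 to 154 in sham. For mmu-miR-17 the 8 IRI levels and 7 of 8 sham levels were above the naive level of 189. For mmu-miR-25 the naive level of 773 lay above the 8 sham levels and below the 8 IRI levels, and for mmu-miR-93 (315) it lay among the IRI levels. In the authors' processed values the naive level of mmu-miR-93 (141) lay below the 8 IRI values (159 to 334) and among the sham values (114 to 301), and that of mmu-miR-25 (671) lay among the sham values (262 to 716). These naive values rest on small margins over background: the mean spot intensity was 597 for mmu-miR-17 and 584 for mmu-miR-20a, against an empty-spot median of 511. The naive pool was in the same dye as IRI and in another than sham.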

How the data were processed

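Total RNA of kidney pools was labelled and hybridised to 9 arrays. The authors deposited the mean intensity of each spot per channel, uncorrected, and a table of signal values per miR and sample, linear, made in a way not given in the sources used here. These signal values served as an alternative, on the log2 scale with a floor of 1. From the spot intensities, background was corrected in R 4.3.3 with normexp (limma 3.58.1, offset 50), the 6 spots averaged, channels normalized by loess (span 0.3, control probes at weight 0) and mean log2 intensities quantile-normalized over the arrays, naive included. The offset shrinks the ratios of dim miRs. miRs reaching 200 in any sample were tested (162 of 569). Limma tested the log2 IRI/sham ratio against 0, its slope and curvature over log2(day), and the slope of each arm, with Benjamini-Hochberg adjustment over all tested miRs and a threshold of 0.05. IRI and sham of a day were paired by their shared array, and days served as replicates, so p-values measure the spread between these pools. Exact permutation tests were added for single members.

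All 10 members were named, with the other products of their clusters, the miRs sharing a seed, the 3 miRs most like mmu-miR-20a (the member with the miR-17 seed and the highest mean intensity), and marker lists of tubule, leukocyte, erythroid, endothelial and fibroblast miRs. Members and lists were chosen with earlier results of these data known. The fits were tested on simulated data. Alternatives covered background, scaling, filter, floor, spot summary, variance model, time scale and days left out. The number of arrays and pools limits the precision. Figures were drawn with matplotlib 3.10.9 in Python 3.11.15.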

Additional observations from a re-analysis of the deposited data

Results flagged for a closer look

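The naive sample, which entered no test, had levels of 3 members above each of the 8 sham samples. mmu-miR-18a was at 173 in naive against at most 119 in sham, mmu-miR-20b at 424 against at most 163, and mmu-miR-25 at 773 against at most 729 (671 against at most 716 in the authors' processed values). For mmu-miR-20b the naive value rested on 1 of 6 spots, at 829.7, while the other 5 lay between 538.2 and 610.1 over an empty-spot median of 510.9, and the authors' processed value for naive was 51, within the range of sham (35 to 82). For mmu-miR-18a the spots lay between 541.6 and 647.2, and the authors' processed value was 79 in naive and at most 25 in sham. Among the levels and ratios of the 10 members in groups of 8 samples (30 groups), 0 held a sample that stood apart from the rest by Dixon's criterion, where chance gives about 1 in 20 groups.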

How the results depend on the processing

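The count of 7 members with a changed mean ratio was 4 with the authors' processed values, 4 with a filter on the mean, 4 with a floor of 200 before the log2, and between 4 and 7 with a day left out (4 without day 5, 14 or 21). It stayed between 5 and 7 under the other settings, all calls being higher in IRI. Without the replicate block, that is with IRI and sham not paired by array, 6 members passed, the loss being mmu-miR-93 (adjusted p = 0.113). Over all miRs, the 59 calls became 26 without day 21, 29 without day 14, 30 without day 7, 37 without day 30 and 30 with the floor. With no filter, 100 of 569 miRs were called. Subtracting the median of the empty spots put 70.5% to 78.4% of the sham probes at the floor of 20, on which the loess curve could not be fitted. With median scaling in its place, a setting chosen after seeing the data, 7 members passed with mean log2 ratios of 1.17 to 1.75, and 83.3% of calls over all miRs were higher in IRI. With a floor of 200, mmu-miR-20b and mmu-miR-106a had ratios of 0.08 and 0.03, since most of their values lie under it. The count of members for a slope, a curvature or the slope of an arm was 0 under each setting that was run. Of 129 mean ratios of single members under these settings, 26 lost their call and 0 changed direction. The spread of the spots within an array (SD of the log2 ratio, median 0.14) limits what a single day shows.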
